A study of Mus musculus with 29 samples.

Results

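The windows of 10 genes of the Notch pathway were examined in a table of percent DNA methylation (%DNAm) from mouse lung. They comprised the 4 receptors Notch1, Notch2, Notch3 and Notch4, the 4 ligands Jag1, Jag2, Dll1 and Dll4, and the 2 target genes Hes1 and Hey1. Members were chosen as every window that the deposited table assigned to a member gene, which gave 123 of its 260686 windows (Notch1 19, Notch2 38, Notch3 9, Notch4 10, Jag1 12, Jag2 15, Dll1 7, Dll4 4, Hes1 5 and Hey1 4). A window holds about 100 CpG positions counted over both strands, and its value is the percentage of methylated calls averaged over them. All 123 windows had a value in all 29 libraries and all were tested. Another 10 of the 133 windows that overlap a member gene carried other gene names and were not counted as members. They lie towards the 3′ ends of Notch1 and Notch3 and over the start of Dll4.

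DNA came from the lung (labelled RML, the right lower lobe in the study's methods) of 13-week-old Balb/c offspring, female according to those methods, and was sequenced after enzymatic conversion of unmethylated cytosines. Sham offspring (n = 7) were born to dams given saline and PM offspring (n = 7) to dams given fine particulate matter (PM2.5) intranasally from before mating until weaning, and neither was challenged with allergen. Sham-OVA (n = 7) and PM-OVA (n = 8) offspring were sensitised to ovalbumin (OVA) with alum and challenged with OVA aerosol, which induces allergic airways disease, and all groups had undergone a methacholine lung function test before collection. The labels do not tie libraries to dams or litters, so p-values measure the spread between these samples. The study's methods describe high genome coverage per library, but the number of calls behind each window's percentage is not given, and the table holds no expression values against which the tissue label could be checked.

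Libraries had a value in 258952 to 260135 windows and correlated at r = 0.983 to 0.997 across complete windows. Sham replicate 1 went against the stated sex, with a value in 1224 of 1230 Y chromosome windows where the other libraries had 29 to 46. It was kept in its group. PM-OVA replicates 7 and 8 carry library names of a different pattern, the meaning of which the labels do not give.

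Notch receptors are single-pass membrane proteins that are cut upon binding a Jagged or Delta-like ligand on a neighbouring cell. The released intracellular domain enters the nucleus, joins the DNA-binding protein RBPJ and a Mastermind coactivator, and switches on target genes such as the Hes and Hey repressors. In the lung the pathway is known for the choice between secretory and ciliated fates in the airway epithelium, for vessel growth and mural cells, and for the differentiation of T cells. CpG-dense gene starts are usually unmethylated, whereas gene bodies are usually methylated, and the level in a bulk tissue is an average over its cell types.

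Sequence from the windows with the largest differences is shown first. Methylation was measured over whole windows, and the runs printed have no value of their own. For each of the 3 member windows that met the criteria of a differentially methylated region (DMR) described further on, the most CpG-dense run of 300 bases outside untranslated regions is printed 5′ to 3′ on the strand of the gene, read from the GRCm38 genome, with each CpG in capitals. The first Notch1 run (chr2:26498584-26498883, minus strand, 10 CpGs) lies in an exon of a retained-intron transcript and is intronic to the coding transcript. The next (chr2:26487684-26487983, minus strand, 13 CpGs) is intronic. The Dll4 run (chr2:119332164-119332463, plus strand, 17 CpGs) lies wholly in an exon.
Notch1 intronic run 1: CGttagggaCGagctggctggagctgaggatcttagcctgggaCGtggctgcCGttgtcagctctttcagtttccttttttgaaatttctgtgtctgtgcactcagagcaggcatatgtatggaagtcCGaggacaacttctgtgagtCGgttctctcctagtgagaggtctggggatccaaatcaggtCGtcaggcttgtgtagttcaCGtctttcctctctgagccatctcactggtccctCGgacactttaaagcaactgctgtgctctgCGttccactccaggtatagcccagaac
Notch1 intronic run 2: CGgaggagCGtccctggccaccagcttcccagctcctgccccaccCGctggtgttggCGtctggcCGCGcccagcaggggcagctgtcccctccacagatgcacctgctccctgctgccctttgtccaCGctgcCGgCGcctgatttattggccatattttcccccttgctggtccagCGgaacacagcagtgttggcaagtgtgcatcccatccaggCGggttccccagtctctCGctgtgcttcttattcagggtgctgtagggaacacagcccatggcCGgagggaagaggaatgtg
Dll4 exonic run: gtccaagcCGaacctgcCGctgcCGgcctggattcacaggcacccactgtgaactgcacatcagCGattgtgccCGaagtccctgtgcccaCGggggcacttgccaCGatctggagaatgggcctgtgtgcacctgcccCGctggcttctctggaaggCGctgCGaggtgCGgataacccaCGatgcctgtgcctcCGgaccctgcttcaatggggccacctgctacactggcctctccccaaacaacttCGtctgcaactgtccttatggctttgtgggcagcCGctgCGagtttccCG

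For comparison, the 250 bases before the RefSeq start (GRCm38) of 4 members are printed in the same way. They were chosen because the windows at the RefSeq starts of Notch3 and Notch4 were more methylated than those at or nearest the RefSeq starts of Notch1 and Dll4. Those of Notch1 (chr2:26503823-26504072, minus strand), Dll4 (chr2:119325534-119325783, plus strand) and Notch3 (chr17:32166891-32167140, minus strand) held 16, 14 and 17 CpGs. That of Notch4 (chr17:34564045-34564294, plus strand) held 4.
Notch1 promoter: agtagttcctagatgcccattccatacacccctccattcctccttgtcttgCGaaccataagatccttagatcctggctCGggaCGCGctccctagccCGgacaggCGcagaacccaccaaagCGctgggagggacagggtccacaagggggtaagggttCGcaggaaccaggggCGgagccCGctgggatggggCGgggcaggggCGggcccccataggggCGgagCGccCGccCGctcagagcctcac
Dll4 promoter: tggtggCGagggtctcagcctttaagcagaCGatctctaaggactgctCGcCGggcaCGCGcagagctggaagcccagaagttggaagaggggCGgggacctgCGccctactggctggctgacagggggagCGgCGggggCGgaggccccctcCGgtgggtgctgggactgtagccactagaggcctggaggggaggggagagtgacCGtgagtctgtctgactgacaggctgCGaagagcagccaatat
Notch3 promoter: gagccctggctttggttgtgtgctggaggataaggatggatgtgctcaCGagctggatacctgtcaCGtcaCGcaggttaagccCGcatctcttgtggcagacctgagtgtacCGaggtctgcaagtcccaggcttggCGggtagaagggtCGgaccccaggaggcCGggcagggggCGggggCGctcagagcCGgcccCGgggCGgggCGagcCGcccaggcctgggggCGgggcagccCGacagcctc
Notch4 promoter: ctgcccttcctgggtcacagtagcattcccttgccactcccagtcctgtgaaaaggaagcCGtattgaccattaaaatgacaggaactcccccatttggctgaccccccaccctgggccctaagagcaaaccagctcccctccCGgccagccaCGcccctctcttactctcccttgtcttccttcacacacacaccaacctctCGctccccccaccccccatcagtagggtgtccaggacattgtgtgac

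RefSeq promoters were matched for 8 of the 10 genes, with 2 for Dll1, and not for Hes1 and Hey1. These 9 promoters held a median of 17 CpGs, against 6 over all 32851 promoters of the same length. The letters TGGGAA, the core of the motif that RBPJ binds, were searched on both strands and occurred in 0 of the 9 and in 21.6% of all promoters, which says only that these letters are not in these windows.

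The question of the main comparison was whether OVA challenge altered methylation in offspring of saline-exposed and of PM-exposed dams. After OVA, Notch1 and Dll4 gained methylation in their gene bodies, by up to 13.7 percentage points. Smaller gains were found near the 3′ ends of Jag1 and Hey1, in an intron of Notch2 and in the window over the start of Notch4. Smaller losses were found in windows of Notch2, Notch3, Jag1 and Jag2 and, in PM offspring, of Notch1. With each library centred, as described below, 0 lower calls were left in Notch2 in Sham offspring and 0 in Notch1 in PM offspring. Each window was tested with limma on a log2 scale, as the percentage methylated over the percentage unmethylated with 1 point added to both, and p-values adjusted over all 259167 tested windows, and was called at an adjusted p under 0.05. In Sham offspring 47 of 123 member windows were called (38.2%, against 35.6% of all tested windows), 40 higher and 7 lower, whereas 13.3% of all windows were higher and 22.3% lower. In PM offspring 51 were called (41.5%, against 44.1% of all), 32 higher and 19 lower, whereas 9.26% of all windows were higher and 34.8% lower. The share called was near the background in both kinds of offspring, and higher calls outnumbered lower ones among the members. In bulk lung, a shift in the mix of cells and a change of methylation within cells cannot be told apart. In all, 27 windows (22%) were higher in both kinds of offspring, against 7.57% of all windows, 6 (4.88%) were lower in both, against 19.7%, and 0 were called in opposite directions, against 0.0177%. Without Sham replicate 1, 42 windows were called in Sham offspring (35 higher), and without PM-OVA replicates 7 and 8, 44 were called in PM offspring (26 higher).

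The split by direction depended on how libraries were scaled, because the median log2 ratio of all windows itself shifted by -0.04 in Sham and -0.10 in PM offspring. With each library centred on its median deviation, 44 member windows were higher and 5 lower in Sham, and 47 higher and 8 lower in PM offspring. Among all windows the centred shares were 18.3% higher and 17.8% lower in Sham, and 18.9% and 18.7% in PM. Of the calls made without centring, 0 changed sign in any of the 10 genes. The median difference was 0.461 points over the members and -0.414 points over all windows in Sham, and 0.218 and -1.03 points in PM offspring.

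**Figure D1:**
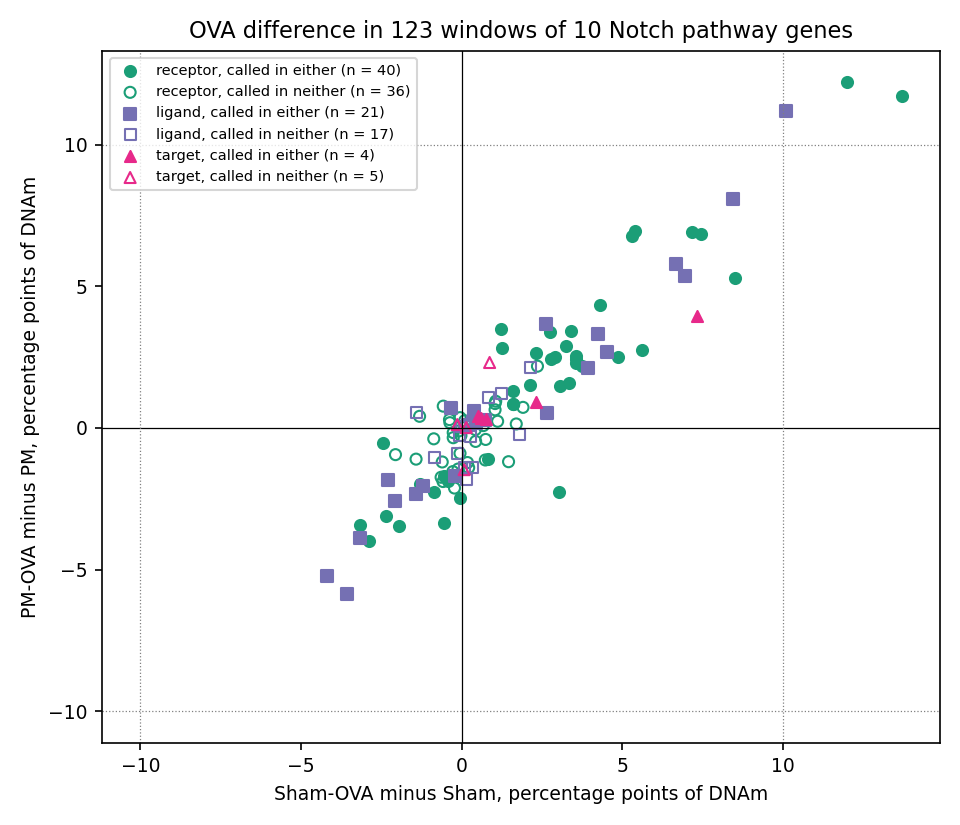
Each point is a window of a receptor, ligand or target gene, plotted by its OVA difference in Sham offspring (horizontal) and in PM offspring (vertical), in percentage points of DNAm; filled points were called in either, and dotted lines mark 10 points. The 3 points beyond 10 points on both axes are the 2 Notch1 windows and the Dll4 window.

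A DMR was a called window with a difference of at least 10 percentage points. The members held 3 DMRs in Sham offspring (2.44%, against 0.775% of all windows) and the same 3 windows were DMRs in PM offspring (2.44%, against 0.584%), all of them higher after OVA. Of all windows, 0.479% were DMRs gained and 0.296% DMRs lost in Sham, and 0.263% and 0.321% in PM offspring. With the stricter p threshold of the study, 1e-06, applied to the adjusted p, 1 member DMR was left in each, the Notch1 window at 26496593 in Sham and the Dll4 window at 119329620 in PM offspring. The share of all windows at that threshold was not counted, so these have no background beside them. At a minimum of 5 points, 13 member windows (10.6%) counted in each kind of offspring, against 5.96% of all windows in Sham and 5.89% in PM. Without Sham replicate 1 the Dll4 window fell under 10 points and 2 DMRs remained in Sham offspring.

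Notch1 encodes a receptor used by epithelial, endothelial and T cells, and it held 2 of the 3 DMRs. Its window from 26496593 to 26500721 on chromosome 2 is 4129 bp long, with no coding bases. Sham libraries lay between 35.2 and 42.5% (median 41) and Sham-OVA libraries between 49.3 and 57.9% (median 53.8). PM libraries lay between 36.2 and 47.8% (median 43) and PM-OVA libraries between 50.9 and 58.4% (median 54). In neither pair did the groups overlap, the highest unchallenged library being lower than the lowest OVA library. The mean rose from 40.1% ± 2.63 (SD, 7 libraries) to 53.9% ± 3.07 (SD, 7 libraries) in Sham, by 13.7 points (95% interval 10.3 to 17.1; log2 ratio 0.79, SE 0.0968; limma adjusted p = 6.15e-07). In PM offspring it rose from 42.5% ± 4.18 (SD, 7 libraries) to 54.2% ± 3 (SD, 8 libraries), by 11.7 points (95% interval 8.42 to 14.9; limma adjusted p = 2.5e-06).

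The other Notch1 DMR, from 26487430 to 26491664, lies wholly in an intron. It rose from 41.2% ± 1.91 (SD, 7 libraries) to 53.3% ± 4.02 (SD, 7 libraries) in Sham offspring, where libraries ranged from 39 to 43.9% without and from 48.1 to 57.4% with OVA (12 points; limma adjusted p = 9.81e-06). In PM offspring it rose from 42.4% ± 4.26 (SD, 7 libraries) to 54.7% ± 3.48 (SD, 8 libraries), with libraries at 37.8 to 49.3% and 49.9 to 59.7% (12.2 points; limma adjusted p = 3.32e-06). Again the groups stood apart, in PM offspring by less than 1 point.

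These DMRs were part of a run of 5 neighbouring windows, from 26483524 to 26502516, that were all called higher in both kinds of offspring. Nearest the start, the window at 26500760 went from 8.78% ± 1.28 (SD, 7 libraries) to 16.2% ± 2.86 (SD, 7 libraries) in Sham and from 10.2% ± 1.3 (SD, 7 libraries) to 17% ± 1.82 (SD, 8 libraries) in PM offspring, without overlap in either (limma adjusted p = 9.13e-07 and 3.16e-06). Between the DMRs, the window at 26491979 rose by 7.17 and 6.91 points, and at the far end the window at 26483524 rose by 5.62 and 2.76 points. The CpG-dense window that holds the RefSeq start of Notch1 (26503467 to 26503866, 125 CpGs per kb), picked after its values were seen, stayed under 2% in each library, at a mean of 0.221% in Sham and 0.143% in Sham-OVA. The window at the 5′ end that GENCODE gives for Notch1 (26516598 to 26522194) held 80.8% ± 0.715 (SD, 7 libraries) in Sham and 81.5% ± 1.82 (SD, 7 libraries) in Sham-OVA and was not called (limma adjusted p = 0.436 in Sham and 0.216 in PM offspring). Farther into the gene, the window at 26473822 rose by 5.4 and 6.95 points. Over its 19 windows, Notch1 held 8 higher and 0 lower calls in Sham and 10 higher and 2 lower in PM offspring, where centring gave 12 higher and 0 lower. The 2 lower windows fell by 3.36 points (26511079; limma adjusted p = 0.00201, centred 0.0773) and fell by 1.88 points (26470890; 0.00477, centred 0.1).

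**Figure D2:**
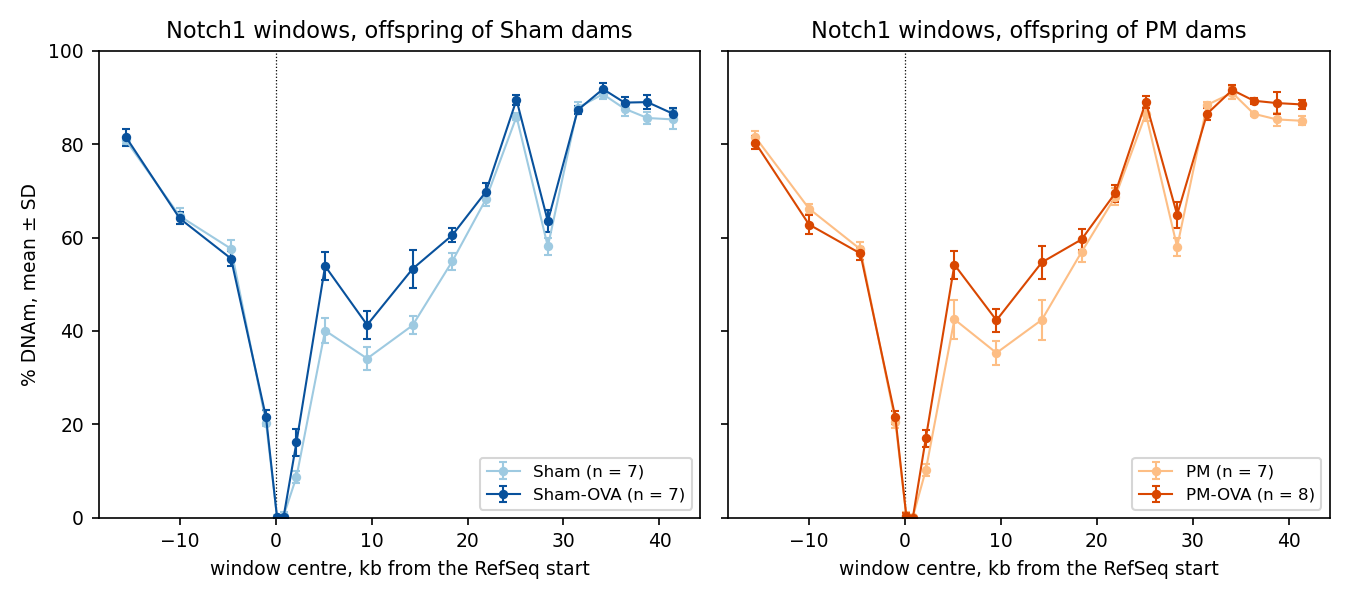
Mean %DNAm (± SD) of the 19 Notch1 windows by distance of the window centre from the RefSeq start in kb, for offspring of Sham dams (left) and PM dams (right), without and with OVA. The curves meet near 0% at the start, and the widest gaps, up to 13.7 points, lie in the windows centred 5165 and 14275 bp into the gene.

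Notch2, a close relative of Notch1 and the member with the most windows, gained less, in scattered windows. Among its 38 windows 13 were higher and 2 lower in Sham, and 8 higher and 6 lower in PM offspring. When centred, 15 were higher and 0 lower in Sham, and 14 higher and 2 lower in PM offspring. The largest difference was in an intronic window on chromosome 3 from 98038285 to 98041460. Its Sham libraries ranged from 56.4 to 60.6% and its Sham-OVA libraries from 59.8 to 72.4%, a rise of 8.51 points with overlapping libraries (limma adjusted p = 0.000338). PM libraries ranged from 56.3 to 64.1% and PM-OVA libraries from 61 to 69%, a rise of 5.29 points (limma adjusted p = 0.0123). That call in PM offspring was lost without PM-OVA replicates 7 and 8 (4.15 points; limma adjusted p = 0.0665). The adjoining window at 98041482 rose by 4.31 and 4.34 points, and the start of the gene (98013469 to 98013850) was unmethylated, at a mean of 0.0274% in Sham and 0.12% in Sham-OVA.

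Notch3, a receptor of vascular smooth muscle and pericytes, changed at its start. The window over its start (chromosome 17 from 32166541 to 32167452) rose from 9.81% ± 1.38 (SD, 7 libraries) to 12.1% ± 1.79 (SD, 7 libraries) in Sham and from 9.78% ± 1.22 (SD, 7 libraries) to 12.4% ± 0.569 (SD, 8 libraries) in PM offspring (limma adjusted p = 0.00831 and 0.00156). All PM-OVA libraries, at 11.7 to 13.5%, lay above the PM libraries, at 8.11 to 11.4%, whereas the Sham groups overlapped. The next window, at 32165602, rose from 2.33% to 5.25% in Sham and from 2.93% to 5.46% in PM offspring (limma adjusted p = 0.000118 and 0.000798). Deeper in the gene, the window from 32149400 to 32153912 fell by 2.89 points and fell by 3.99 points from 85.8% in Sham and 86.2% in PM (limma adjusted p = 0.0179 and 0.000866), and the call in Sham offspring was lost without Sham replicate 3 or Sham-OVA replicate 6 (limma adjusted p = 0.0533 and 0.0541). Notch3 had 2 higher and 1 lower call in Sham and 2 higher and 3 lower in PM offspring (3 and 1 when centred). These counts leave out its 3′ part, up to 32143568, where the windows carried the name Gm17276.

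Notch4, known mainly from endothelium, has the CpG-poor start printed above, and the window over that start (chromosome 17 from 34561649 to 34566023) was partly methylated. Its libraries ranged from 41.1 to 50.8% in Sham, 47.8 to 54.9% in Sham-OVA, 40.4 to 49.1% in PM and 49.6 to 56.7% in PM-OVA. The groups overlapped in Sham and did not in PM offspring. The rise was 5.31 points in Sham offspring and 6.77 points in PM offspring (limma adjusted p = 0.00579 and 0.000368), and it was the largest of the 10 Notch4 windows. Towards the 3′ end, a CpG-dense window of 392 bp (34587370 to 34587761), annotated as coding or untranslated depending on the transcript, was nearly unmethylated, at a mean of 0.176% in Sham, and did not pass the test. In all, Notch4 held 3 higher calls in Sham and 1 in PM offspring (3 when centred), with 0 lower.

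Among the ligands, Dll4, the Delta-like ligand of sprouting endothelium and of antigen-presenting cells, gained methylation across its gene body. The DMR (chromosome 2 from 119329620 to 119332500) covers 748 coding bases. Sham libraries ranged from 52.6 to 59.7% (median 56.6) and Sham-OVA libraries from 59.6 to 70.4% (median 66.3), the highest Sham library lying just above the lowest Sham-OVA library. PM libraries ranged from 52 to 58.4% (median 54.9) and PM-OVA libraries from 62.2 to 68.7% (median 66.2), with no overlap. The mean rose by 10.1 points in Sham (95% interval 7.2 to 13.0; log2 ratio 0.61, SE 0.0874; limma adjusted p = 5.45e-06) and by 11.2 points in PM offspring (95% interval 8.44 to 14; log2 ratio 0.67, SE 0.0846; limma adjusted p = 5.7e-07). The Sham difference lay close to the minimum of 10 points. It fell under it, to as little as 9.37 points, without any of 6 libraries (Sham replicates 1, 3 and 5 and Sham-OVA replicates 1, 4 and 6), while remaining called in all 29 fits that left out a library.

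The flanking Dll4 windows moved the same way. The window at 119327138 rose from 15.6% ± 1.01 (SD, 7 libraries) to 22.3% ± 2.6 (SD, 7 libraries) in Sham and from 16.8% ± 1.77 (SD, 7 libraries) to 22.5% ± 2.15 (SD, 8 libraries) in PM offspring, without overlap in either (limma adjusted p = 5.59e-06 and 2.16e-05). That at 119332501, which runs over the 3′ end, rose by 8.46 and 8.09 points. Nearest the start, the window at 119326280 stayed under 2% in each library and was called in PM offspring, by 0.604 points (limma adjusted p = 0.0121), a call that was lost on untransformed percentages (limma adjusted p = 0.1). In Sham offspring it was not called with all libraries (limma adjusted p = 0.123) and was called without Sham-OVA replicate 4 (0.0431). As a mean over its 4 windows, Dll4 stood at 31.6% ± 0.944 (SD, 7 libraries) in Sham, 38% ± 1.9 (SD, 7 libraries) in Sham-OVA, 31.6% ± 1.5 (SD, 7 libraries) in PM and 38.1% ± 1.18 (SD, 8 libraries) in PM-OVA. By the same measure Notch1 stood at 55.4%, 58.7%, 56% and 58.8%.

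Jag1, a ligand of airway and vascular Notch signalling, moved in both directions. Its 3′ window (chromosome 2 from 137079353 to 137083043, with 1571 untranslated bases) rose from 64.8% ± 1.97 (SD, 7 libraries) to 71.7% ± 1.73 (SD, 7 libraries) in Sham and from 66.1% ± 2.19 (SD, 7 libraries) to 71.5% ± 1.45 (SD, 8 libraries) in PM offspring (limma adjusted p = 5.41e-06 and 6.59e-05). OVA libraries started at 68.9% and 70.5%, above the highest unchallenged libraries at 68.7% and 70.4%. An internal, largely intronic window (137100131 to 137106403), picked after its values were seen, fell from 85.3% to 81.1% in Sham and from 85.3% to 80.1% in PM offspring, also without overlap (limma adjusted p = 9.35e-05 and 2.99e-06). The start window (137116233 to 137116715) was nearly unmethylated, at means of 0.345 to 0.661% over the 4 groups, and was not called, except in PM offspring without PM replicate 1 (0.494 points; limma adjusted p = 0.0225). Jag1 had 5 higher and 1 lower call in Sham and 1 higher and 3 lower in PM offspring, or 3 and 2 when centred.

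Jag2, the other Jagged ligand, held the largest fall of the members in PM offspring. In the window on chromosome 12 from 112917078 to 112919607, Sham libraries ranged from 57.2 to 63.3% and Sham-OVA libraries from 54.1 to 59.1%. PM libraries ranged from 60.6 to 64.3% and lay wholly above PM-OVA libraries, at 52.8 to 58.4%. The mean fell by 3.56 points in Sham and fell by 5.86 points in PM offspring (limma adjusted p = 0.00593 and 2e-05). The next window towards the 3′ end, at 112915402, fell by 3.17 points and fell by 3.89 points. Toward the start, by contrast, the window at 112927298 rose by 4.24 and 3.32 points. The CpG-dense start window (112929554 to 112929825) was called higher in PM offspring by 0.712 points, at a mean of 0.867% in PM-OVA, and that call was lost on untransformed percentages (limma adjusted p = 0.0959), without PM-OVA replicate 3 (0.054) and without PM-OVA replicates 7 and 8 (0.0751). Jag2 had 2 higher and 3 lower calls in Sham and 2 higher and 5 lower in PM offspring, or 3 and 3 when centred.

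Dll1, the Delta-like ligand best known from somites and marginal zone B cells, had the fewest calls. Of its 7 windows 0 were called in Sham and 1 was called in PM offspring. That window (chromosome 17 from 15370297 to 15373524) had a difference of 2.63 points in Sham (95% interval -0.378 to 5.65; limma adjusted p = 0.18) and rose by 3.66 points in PM offspring (limma adjusted p = 0.0403), and this call was lost in 9 of 29 fits that left out a library. Those were the fits without PM replicates 2, 3, 5, 6 or 7 and without PM-OVA replicates 1, 3, 5 or 8, with limma adjusted p from 0.0507 to 0.106. The start window (15376332 to 15377144) held 3.67% in Sham, 2.83% in Sham-OVA, 3.93% in PM and 2.9% in PM-OVA and was not called, except in PM offspring without PM replicate 1, where it fell by 1.5 points (limma adjusted p = 0.0181).

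**Figure D3:**
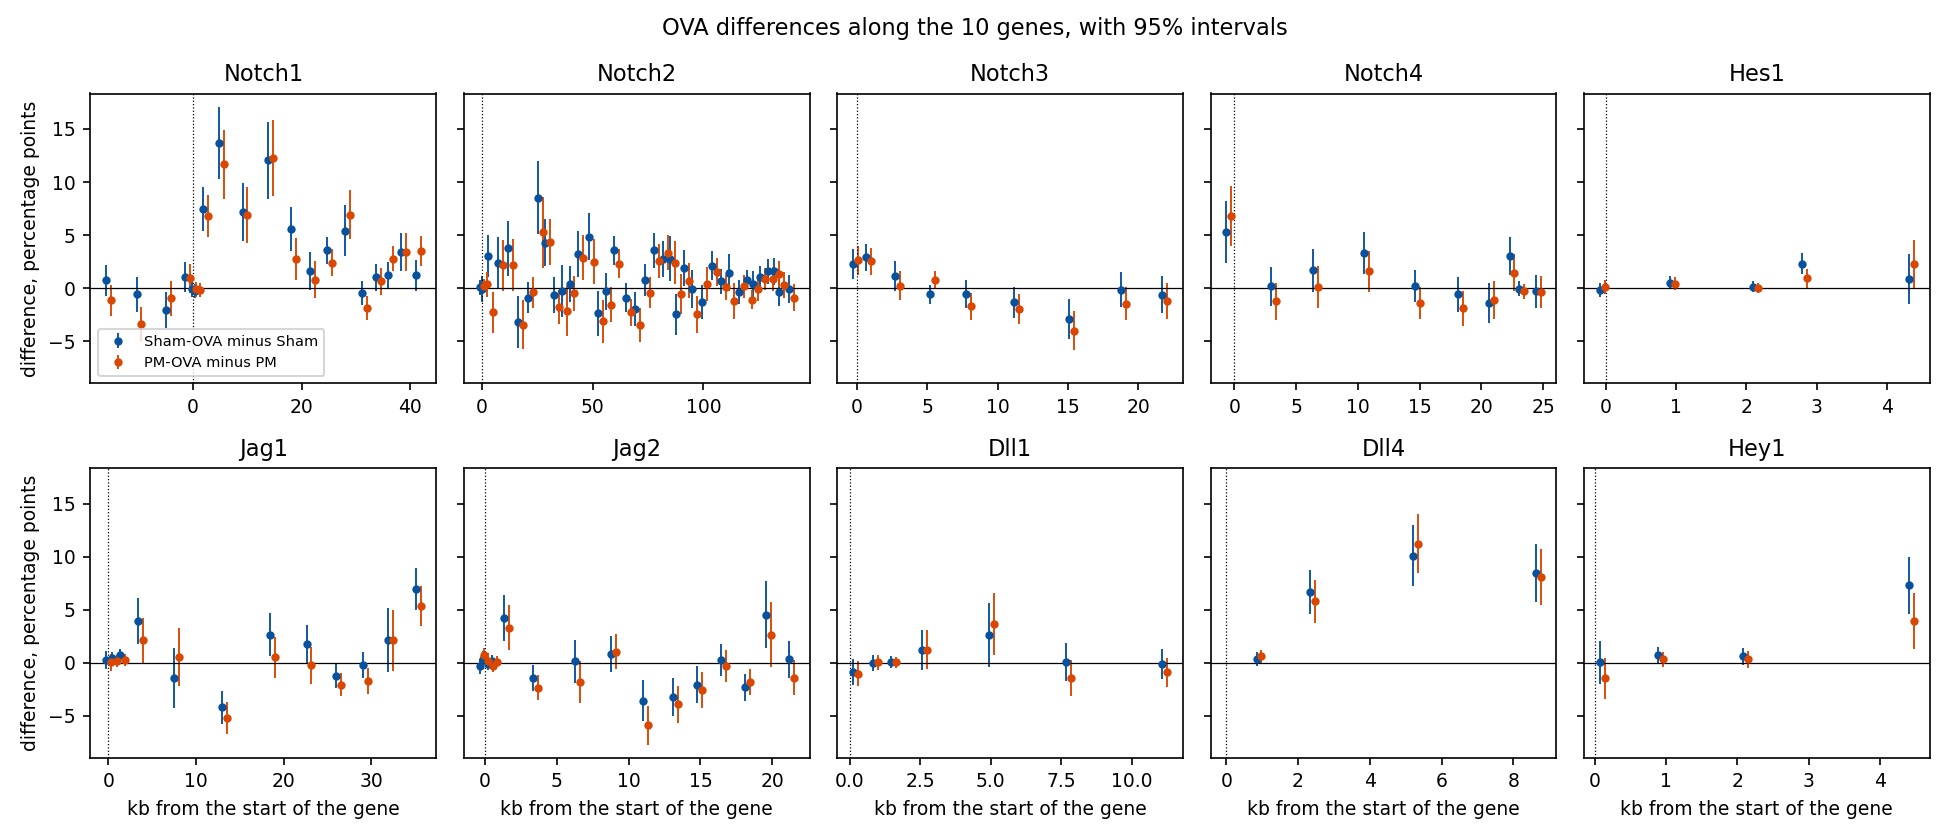
OVA differences with 95% intervals (percentage-scale limma, in percentage points) in the member windows of each of the 10 genes. Windows are placed by distance of their centre in kb from the RefSeq start or, for Hes1 and Hey1, the GENCODE 5′ end. Blue is Sham-OVA minus Sham and orange PM-OVA minus PM. The start windows differ by less than 2 points except in Notch3 and Notch4, and the tallest are in the bodies of Notch1 and Dll4.

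Both target genes encode basic helix-loop-helix repressors. In Hes1 4 of 5 windows were under 5% in Sham, and the start window (chromosome 16 from 30064100 to 30064562) had means of 0.0986 to 0.451% over the 4 groups. The window from 30066925 to 30067495, with 501 coding bases, rose in Sham offspring from 2.22% ± 0.488 (SD, 7 libraries) to 4.55% ± 0.804 (SD, 7 libraries). Its highest Sham library, at 3.16%, lay below its lowest Sham-OVA library, at 3.66% (2.32 points; limma adjusted p = 0.000148). In PM offspring it went from 2.28% ± 0.908 (SD, 7 libraries) to 3.21% ± 0.935 (SD, 8 libraries), with overlapping libraries (0.927 points; limma adjusted p = 0.0382). The call in PM offspring was not kept on untransformed percentages (limma adjusted p = 0.0978) or without PM-OVA replicates 7 and 8 (0.0935). It was also lost in 9 of 29 fits that left out a library, namely PM replicates 2, 4, 5 or 7 or PM-OVA replicates 1, 2, 3, 5 or 8, with limma adjusted p from 0.054 to 0.106.

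In Hey1 the window over the 3′ untranslated region and beyond (chromosome 3 from 8661061 to 8664556) was the methylated one, the other 3 windows being under 5% in Sham. Sham libraries ranged from 61.2 to 65.8% and Sham-OVA libraries from 68.8 to 74.6%, a rise of 7.33 points without overlap (95% interval 4.6 to 10; limma adjusted p = 9.61e-05). PM libraries spread from 57.8 to 71.1% and PM-OVA libraries from 67.4 to 72%, a rise of 3.95 points (95% interval 1.32 to 6.59; limma adjusted p = 0.017). Without PM replicate 5 that rise was 2.69 points and was not called (limma adjusted p = 0.057), nor was it called without PM-OVA replicates 7 and 8 (3.47 points; limma adjusted p = 0.0587). The start window (8666943 to 8667370) was under 2% in each library except PM replicate 1, at 10.4%.

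**Figure D4:**
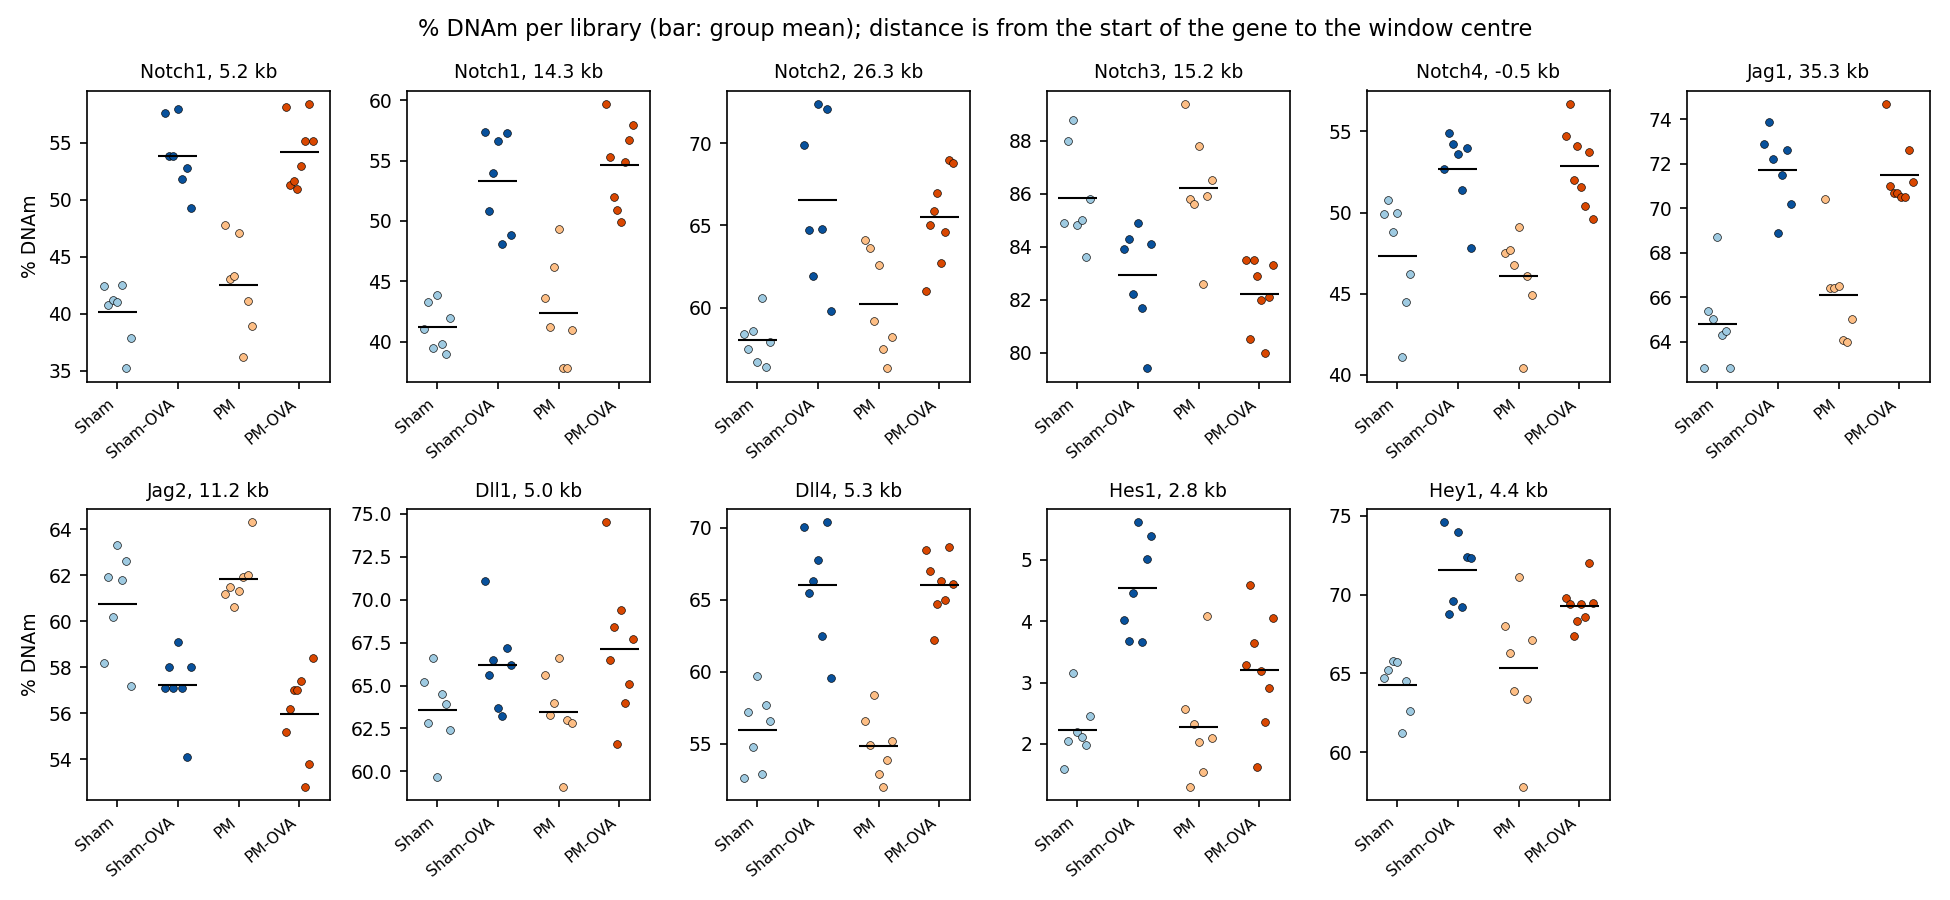
%DNAm of each library (points) and the group mean (bars) in the window with the largest OVA difference of each gene and in the other Notch1 DMR, titled by gene and distance from its start in kb; the vertical axes differ in range and do not start at 0. Group means are higher with OVA in the Notch1, Notch2, Notch4, Jag1, Dll1, Dll4, Hes1 and Hey1 panels and lower in the Notch3 and Jag2 panels. Libraries stand apart in both kinds of offspring in both Notch1 panels and, by less than 1 point, in the Jag1 panel.

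The calls were also counted by starting level, without centring. Of 27 windows at 40 to 70% in Sham, 17 were higher and 2 lower after OVA in Sham offspring, whereas 23.6% and 14.1% of all windows in that range were. In PM offspring 13 of the 27 were higher and 3 lower, against 17.2% and 23.2% of all. Of 60 windows at 70% and above, 11 were higher and 5 lower in Sham offspring, against 9.06% and 27.3% of all windows at that level. In PM offspring 9 of the 60 were higher and 16 lower, against 5.57% and 42.6% of all. Of 13 windows at 5 to 40%, 6 were higher and 0 lower in Sham, against 25.6% and 11.2% of all, and 5 higher and 0 lower in PM offspring, against 21% and 14.2%. Another 23 windows, found in all 10 genes, were under 5% in Sham, of which 6 were higher and 0 lower in Sham, against 16.8% and 1.78% of all, and 5 higher and 0 lower in PM offspring, against 14.7% and 2.19%. They differed by -0.84 to 2.92 points in Sham and by -1.47 to 2.52 points in PM offspring, and 19 of them were centred within 2000 bp of a gene start. The 27 windows higher in both kinds of offspring had a median of 15.31 CpGs per kb and started at a median of 55.9%, against 17.3 CpGs per kb and 74.8% in the other 96. Windows without any exonic base made up 7 of the 27 and 19 of the 96.

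Libraries of the groups compared did not overlap in 14 member windows in Sham offspring (13 higher and 1 lower, 11.4% in all, against 3.15%, 5.43% and 8.58% of all windows) and in 16 in PM offspring (12 higher and 4 lower, 13% in all, against 1.65%, 10.3% and 12%). In 6 windows (4.88%, against 4.24% of all) the groups stood apart in the same direction in both kinds of offspring, namely 3 of Notch1, 2 of Jag1 and 1 of Dll4.

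Other genes of the pathway were taken from a list of 45, of which 43 had windows (628 in all; Hes5 and Fbxw7 had none). In Sham offspring 144 windows were higher and 91 lower, and in PM offspring 111 were higher and 133 lower. That was 37.4% called in Sham, against 35.6% of all windows, and 38.9% in PM, against 44.1%. With each library centred the split was 187 higher and 63 lower in Sham and 182 higher and 70 lower in PM offspring, so that the direction of the balance in PM offspring turned. There were 7 DMRs in Sham (5 higher and 2 lower; 1.11%, against 0.775% of all windows). In PM offspring there were 5 (3 higher and 2 lower; 0.796%, against 0.584%). Not all of them are described here. Rbpj, the DNA-binding partner itself, held 2 intronic DMRs, both lower. The larger fall was from 72.3% to 59.5% in Sham (chromosome 5, 53540025 to 53544782; limma adjusted p = 9.4e-08), and that window fell by 9.51 points in PM offspring. Maml3, a Mastermind coactivator, held a DMR in Sham offspring (51748738 to 51751690), which rose by 10.5 points there and by 4.74 points in PM (limma adjusted p = 1.77e-08 and 0.00031). Another Maml3 window (51932649 to 51936304) was a DMR in PM offspring, where it fell by 10.9 points, and fell by 7.86 points in Sham (limma adjusted p = 5.04e-10 and 3.32e-07). In Lfng, the Fringe enzyme that alters ligand choice, 1 window rose by 11.6 points in PM and 8.92 points in Sham offspring, and 2 of its 6 windows were higher and 1 lower in each. In Numb, an inhibitor of Notch, 1 window rose by 11.0 points in Sham offspring and 6.57 points in PM offspring, with 6 of its 19 windows higher and 1 lower in Sham and 4 higher and 3 lower in PM.

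Marker genes of 4 kinds of cell were summarised beside the members. The mean over 74 windows of 15 leucocyte genes was lower with OVA, going from 71.9 to 73.2% over Sham libraries to 69.3 to 71% over Sham-OVA libraries, and from 72.4 to 73.4% in PM to 69.1 to 70.4% in PM-OVA. Of these windows 28 were lower and 12 higher in Sham, and 35 lower and 7 higher in PM offspring, with 8 and 6 DMRs, all lower. That was 54.1% called in Sham and 56.8% in PM, against 35.6% and 44.1% of all windows, and DMRs made up 10.8% and 8.11%, against 0.775% and 0.584%. Endothelial genes (161 windows) had means of 67.4% in Sham, 68.6% in Sham-OVA, 68% in PM and 68.1% in PM-OVA, with 52 windows higher and 33 lower in Sham and 44 higher and 49 lower in PM offspring. Epithelial genes (53 windows) had 16 higher and 5 lower in Sham and 9 higher and 8 lower in PM offspring, and mesenchymal genes (83 windows) 16 higher and 23 lower, and 11 higher and 31 lower. The shares called in Sham and PM were 52.8% and 57.8% for endothelial, 39.6% and 32.1% for epithelial and 47% and 50.6% for mesenchymal genes. Their DMRs numbered 5 and 3, 1 and 0, and 0 and 0. With each library centred the splits were 17 higher and 30 lower for leucocyte, 59 and 33 for endothelial, 17 and 2 for epithelial and 19 and 19 for mesenchymal genes in PM offspring, and 20 and 19 for mesenchymal genes in Sham offspring. The part of these markers in the Notch results was not tested.

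The remaining comparisons asked whether maternal PM exposure itself, or in interaction with OVA, was seen in these genes. For PM against Sham, 0 of 123 member windows and 0 of all 259167 windows were called by limma (0%), and 4 member windows (3.25%) had an unadjusted p under 0.05, against 5.79% of all. Differences ranged from -2.34 to 3.07 points. The smallest p was in a Notch2 window (98132826 to 98135611), at 92.8% ± 0.658 (SD, 7 libraries) in Sham and 94% ± 0.364 (SD, 7 libraries) in PM (difference 1.21 points, 95% interval 0.289 to 2.12; limma adjusted p = 0.812). For PM-OVA against Sham-OVA, 0 were called (0% of all windows), and 8 member windows (6.5%) had an unadjusted p under 0.05, against 5.96%. Differences ranged from -2.55 to 2.05 points. The smallest p was in a Notch1 window (26460948 to 26463863), at 86.5% ± 1.26 (SD, 7 libraries) in Sham-OVA and 88.5% ± 0.912 (SD, 8 libraries) in PM-OVA (limma adjusted p = 0.816).

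The interaction (the effect of OVA in PM offspring less its effect in Sham offspring) was likewise called in 0 member windows and in 0% of all windows, with 8 member windows (6.5%) at an unadjusted p under 0.05 against 7.4% of all. It ranged from -5.29 to 2.27 points over the members. The extreme was an intronic Notch2 window (98015428 to 98019719). Its mean went from 66.1% ± 1.46 (SD, 7 libraries) to 69.2% ± 2.06 (SD, 7 libraries) with OVA in Sham and from 69.2% ± 2.62 (SD, 7 libraries) to 67% ± 1.3 (SD, 8 libraries) in PM offspring. The rise in Sham was called (limma adjusted p = 0.0219; 0.0535 without Sham replicate 3) and the fall in PM was not (0.0604). The latter was called in 3 of 29 fits that left out a library, without Sham-OVA replicate 3, PM replicate 6 or PM-OVA replicate 7 (limma adjusted p from 0.0123 to 0.0493). With each library centred the difference in PM was -0.817 points (limma adjusted p = 0.494). The difference between these effects had a 95% interval of -8.09 to -2.48 points but did not pass (limma adjusted p = 0.551). At the 3 DMRs the interaction was -2.03 points (95% interval -6.72 to 2.66) and 0.209 points (-4.88 to 5.29) for the Notch1 windows, in the order given above, and 1.15 points (-2.88 to 5.17) for Dll4. These intervals hold effects in PM offspring several points larger or smaller than in Sham offspring, so the data did not show that the effects were equal.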

How the data were processed

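Genomic DNA of 29 libraries was measured by enzymatic methyl-seq with a lambda spike. The authors trimmed reads with Trim Galore, aligned and called methylation with DRAGEN against GRCm38, and averaged calls in SeqMonk over windows of 100 CpG positions. The deposited table gives percent methylation per window and library, with no counts, so the calls behind each window are unknown and the count test of the study (edgeR) could not be run. Here, limma 3.58.1 (R 4.3.3) was fitted to log2 of the methylated over the unmethylated percent, 1 point being added to both, with the 4 groups as levels. All 259167 windows with at least 3 values in each group were fitted (1519 of 260686 were left out), in 5 contrasts, 2-sided, with Benjamini-Hochberg adjustment over all of them. Intervals of differences in points are 95% limma intervals on the percentages. Groups came from the sample titles.

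Windows were named by rule: every member DMR, the largest OVA difference of each gene, the window at or nearest each 5′ end, the smallest p of each remaining contrast, and the DMRs of the other pathway genes. Some results among the latter are not reported here. A further 15 windows were picked after their values were seen: those at 26470890, 26473822, 26483524, 26491979, 26500760, 26503467 and 26511079 in Notch1, 98041482 in Notch2, 32165602 in Notch3, 34587370 in Notch4, 137100131 in Jag1, 112915402 and 112927298 in Jag2, and 119327138 and 119332501 in Dll4. Apart from centring and the thresholds, alternatives were not run window by window for these 15. The members, the gene lists and the rules were chosen with earlier results of these data known. Alternatives were percentages, an offset of 5, centring, complete windows, the contrast groups alone, a block for replicate number, single libraries left out, an adjusted p under 1e-06, windows by overlap and a minimum of 5 points. Replicate numbers are those of the sample titles, which differ from the numbers in some library names. Deviations of same-numbered libraries correlated weakly, with 1 of 42 pairs above 0.1 and a median r of 0.0141, against -0.00227 for other numbers. For 9 of 29 libraries the best match in another group had the same number. A pairing of samples was not shown, and weak correlation cannot exclude one. Tested on simulated data for OVA in Sham over 259167 windows, the fit recovered 198 of 200 changed windows and called 0 of the others. Annotation and sequences were read with Python 3.11.15, pandas 2.3.3 and pysam 0.24.0.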

Additional observations from a re-analysis of the deposited data

Results flagged for a closer look

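In 92 groups of libraries, 4 for each of 23 named windows, the highest or lowest library was compared with its nearest neighbour by Dixon's criterion. By it 13 values stood apart, where chance gives about 1 in 20 groups if values are normally distributed. The start windows listed below were under 5% in Sham, near the floor, so that rate need not hold for them. At the Hey1 start (8666943), PM replicate 1 held 10.4% where the next PM library held 0.51%, and Sham replicate 6 held 1.04%. At the Jag1 start (137116233) PM replicate 1 held 3.12%, in the 3′ Jag1 window (137079353) 70.4% against 66.5% in the next library, and at the Dll1 start (15376332) 1.14% against 3.96%. At the Notch2 start (98013469), Sham-OVA replicate 7 held 0.497% and PM-OVA replicate 5 held 2.46%. At the Hes1 start (30064100), Sham-OVA replicate 3 held 1.26%, PM replicate 6 held 0.605% and PM-OVA replicate 1 held 1.29%. In the intronic Notch2 window at 98015428, Sham-OVA replicate 3 held 64.7% against 69.3% in the next library. In the Jag2 window at 112917078, Sham-OVA replicate 6 held 54.1% against 57.1%, and PM replicate 7 held 64.3% against 62%.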

How the results depend on the processing

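Among 440 values of named windows under alternative settings, with the lowest and highest p standing for the fits that left out a library, 415 kept their direction and their side of the threshold, 18 lost their call, 7 gained one and 0 reversed. The counts of calls and DMRs in the OVA comparisons moved by more than 1.5 times under the threshold and minimum difference tried. With the p threshold of the study, 1e-06, applied to limma's adjusted p, 2 member windows were called in Sham offspring, both of Notch1 (26500760 and 26496593), with 1 DMR, and 1 in PM offspring, of Dll4 (119329620), with 1 DMR. No share of all windows was counted at that threshold. At a minimum difference of 5 points there were 13 DMRs in Sham (13 higher) and 13 in PM offspring (11 higher). That was 10.6% of the member windows in each, against 5.96% of all windows in Sham and 5.89% in PM offspring. With a replicate block, 46 windows were called in Sham and 48 in PM offspring, with 3 DMRs each and 0 calls in the other comparisons, and the calls in PM offspring at the Jag2 start (112929554; limma adjusted p = 0.067) and in Hes1 (30066925; 0.0938) were lost. Over the remaining settings that kept every library, calls ranged from 40 (groups of the contrast alone) to 54 (windows by overlap) in Sham and from 46 to 55 in PM offspring. Leaving out 1 library at a time gave 38 (without Sham-OVA replicate 6) to 49 calls and 2 to 3 DMRs in Sham, and 46 to 52 calls and 3 to 3 DMRs in PM offspring. The maternal and interaction comparisons gave 0 calls in each of these. For the centred fit, the Notch2 window at 98132826 was called in Sham (limma adjusted p = 0.0349) and not in PM offspring (0.191). Removing PM-OVA replicates 7 and 8 was chosen after seeing the data. The number of calls behind each window is unknown. The calls of less than 1 point in PM offspring at the Jag2 (112929554) and Dll4 (119326280) starts and in Hes1 (30066925) were lost on untransformed percentages.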
